A study of Mus musculus with 22 samples.

Results

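The muscle transcription factors Myod1, Myf5, Myf6, Myog, Mef2a, Mef2c and Mef2d were followed through mouse C3H 10T1/2 cells that carried wild-type or mutant DNMT3A and were taken into adipocyte differentiation. The 7 genes were taken by name from the deposited table, which holds 30170 genes. RNA-seq counts were available for 22 libraries in 11 conditions with 2 libraries each. The lines expressed DNMT3A WT, the point mutant W330R or the double mutant W330R-R181E. WT and W330R were sampled undifferentiated and on days 2, 4 and 6, and W330R-R181E on days 2, 4 and 6, so that the double mutant had no undifferentiated sample. All cells sampled on days 2 to 6 had received isobutylmethylxanthine, dexamethasone, insulin and troglitazone for the first 2 days and insulin afterwards, whereas the undifferentiated cells had no induction. The labels call the double mutant R181E and the columns of its libraries R181A. They do not say whether the 2 libraries of a condition came from separate cultures or how many clones each line represents, so that the p-values below measure the spread between these libraries, which may be technical. DNMT3A is one of the enzymes that place new methyl groups on CpG cytosines, and W330 lies in its PWWP domain, a reader of histone methylation.

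Myod1, Myf5, Myog and Myf6 encode the basic helix-loop-helix (bHLH) factors that set and carry out the skeletal muscle program. They bind E-box DNA as dimers with the widely expressed E proteins; Myod1 and Myf5 commit cells to the lineage, Myog drives terminal differentiation, and Myf6 (also called Mrf4) acts in both phases. The MEF2 proteins are MADS-box factors that work with the myogenic bHLH factors in muscle and also serve in neurons, immune cells, vessels and heart, where class IIa histone deacetylases hold them in check. C3H 10T1/2 is a mesenchymal line that turns to muscle after treatment with demethylating drugs, and Myod1 was found through that conversion. The question put to these libraries is therefore which of the factors had any RNA, and whether the levels differed between the DNMT3A genotypes or along differentiation.

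Promoters of 5 of the 7 members were matched by symbol in RefSeq, on build GRCm38.p6. They are shown for the silent genes Myog and Myf5 and for Mef2a and Mef2d, the pair with ample RNA, because the CG dinucleotides in them are the substrate of DNMT3A. Each run gives the 250 bases before the start of the gene, read 5′ to 3′ on the gene's strand, with every CG in capitals. DNA methylation was not measured in these libraries.
Myog (chr1:134289754-134290003, strand +): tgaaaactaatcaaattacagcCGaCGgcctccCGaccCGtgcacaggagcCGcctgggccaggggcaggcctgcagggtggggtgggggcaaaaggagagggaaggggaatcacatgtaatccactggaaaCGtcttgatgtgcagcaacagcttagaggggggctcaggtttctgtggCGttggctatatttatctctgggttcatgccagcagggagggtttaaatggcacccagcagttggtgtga
Myf5 (chr10:107486135-107486384, strand -): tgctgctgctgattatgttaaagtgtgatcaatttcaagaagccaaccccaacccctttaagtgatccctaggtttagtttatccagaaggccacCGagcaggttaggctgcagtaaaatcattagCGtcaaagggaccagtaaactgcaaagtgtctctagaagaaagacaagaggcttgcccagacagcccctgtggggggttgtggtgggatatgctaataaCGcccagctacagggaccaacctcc
Mef2a (chr7:67372859-67373108, strand -): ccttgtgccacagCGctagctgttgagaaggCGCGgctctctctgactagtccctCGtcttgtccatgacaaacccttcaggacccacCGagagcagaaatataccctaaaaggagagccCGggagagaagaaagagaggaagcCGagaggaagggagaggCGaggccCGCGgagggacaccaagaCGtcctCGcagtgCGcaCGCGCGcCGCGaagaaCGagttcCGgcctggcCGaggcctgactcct
Mef2d (chr3:88142122-88142371, strand +): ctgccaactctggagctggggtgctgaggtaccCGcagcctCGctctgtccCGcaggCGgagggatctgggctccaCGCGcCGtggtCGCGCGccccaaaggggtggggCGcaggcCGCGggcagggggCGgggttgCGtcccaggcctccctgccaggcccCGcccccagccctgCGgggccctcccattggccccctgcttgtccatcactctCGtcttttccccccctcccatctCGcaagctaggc

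Over 32851 RefSeq promoters the median number of CG in such a window was 6, with quartiles of 2 and 16. The Mef2a window held 21 CG and the Mef2d window 19, counts that 16.3% and 19.7% of promoters equalled or passed. The Myog window held 7 and the Myf5 window 3, which 46.3% and 71.0% of promoters equalled or passed. Mef2c has 3 starts in the table, and their windows held 1, 6 and 4 CG. The letters of the E-box, CANNTG, which read the same on both strands, were found in 66.2% of promoters. The Myog window held 2 of them, CACATG at 138 to 133 bases before the start and CAGTTG at 12 to 7 bases before it. The letters CTANNNNTAG, which also read the same on both strands, were searched as a form of the MEF2 motif with fixed ends. They were found in 3.2% of promoters and once in the Myf5 window, as CTAGGTTTAG at 182 to 173 bases before the start. The pattern allows any base in its middle, so that a match need not be a MEF2 site. Other forms of the site were not searched, so that a window without a match may still hold one. These matches are descriptions of the sequence.

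The 4 myogenic bHLH factors were silent at this depth. Myod1 had 0 counts in 22 of 22 libraries, and so had Myf5. Myog had 1 count in all, in replicate 2 of W330R-R181E on day 6, and 0 in the other 21 libraries. Myf6 also had 1 count in all, in the same library, which was the smallest with 8859501 counts. That 1 count equals 0.108 CPM (the count scaled by the library total times its TMM factor, the scale of all CPM given here). The 4 genes were thus at or under 3 counts in every library, as were 40.7% of the 30170 genes in the table. A count of 0 allows up to 3 counts, which is between 0.0583 and 0.347 CPM in a single library. Over the 443485573 counts of all libraries together it is 0.00672 CPM. This pooled limit is that of Myod1 and Myf5, and it does not apply to Myog and Myf6, which had 1 count each. These limits cover counting error alone and take every read as its own molecule, which PCR copies are not. No fold change or test can be given for these 4 genes, and levels below the limits may have gone uncounted.

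Among the MEF2 genes, Mef2a and Mef2d were well counted in every library and Mef2c was low. Mef2a had 953 to 4194 counts and Mef2d 636 to 4017. Mef2c had 807 counts in all libraries together and was at 0 in 5 of them: replicate 2 of WT on days 2 and 6, replicate 1 of WT on day 4, replicate 2 of W330R on day 6 and replicate 1 of W330R-R181E on day 4. No library had between 1 and 3 counts of Mef2c, so these 5 are also the libraries at or under 3 counts. The 3 genes passed the filter on low counts, which makes 3 of the 7 members that could be tested. Per kilobase of the median coding transcript, the median level over the libraries was 42.9 CPM for Mef2a, 31.4 for Mef2d and 1.30 for Mef2c. Mef2a was above Mef2d on this scale in 22 of 22 libraries, with a ratio of 1.01 to 1.94. The median lengths come from GENCODE M21, which lists transcripts of 631 to 5538 bases for Mef2a, 1767 to 5401 for Mef2d and 332 to 6277 for Mef2c, so that the ratio moves with the transcript counted. In that annotation Mef2a overlaps Lysmd4 on the opposite strand and the gene models Gm44667 and Gm44668 on its own, and Mef2d overlaps the antisense gene 1700113A16Rik. Whether the counting used strand is not given in the sources used here, so that reads of these overlaps cannot be assigned with certainty.

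**Figure D1:**
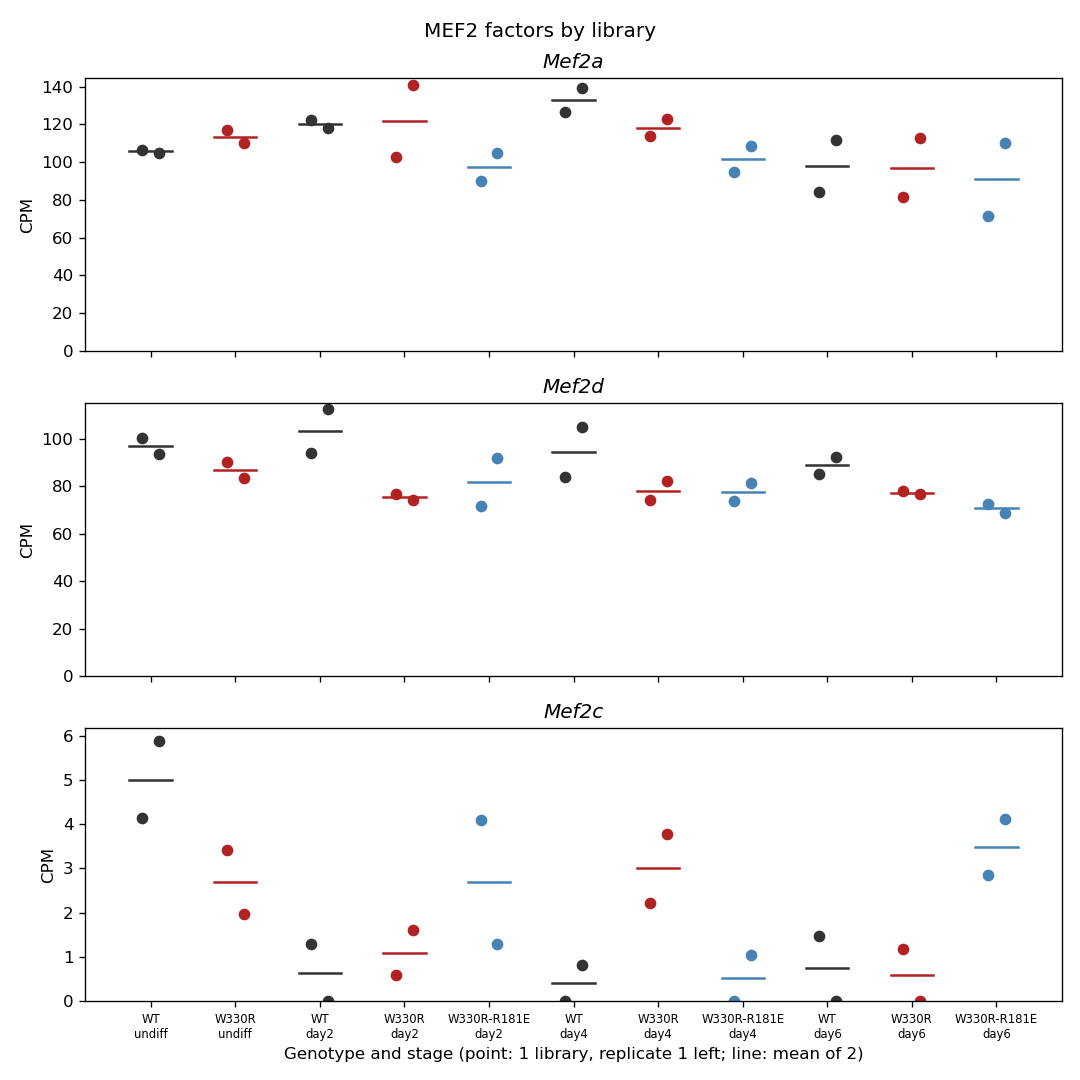
CPM of Mef2a, Mef2d and Mef2c (vertical axes, each from 0) in the 22 libraries, ordered by stage and coloured by genotype (black WT, red W330R, blue W330R-R181E), with 1 point per library and a line at the mean of 2. The Mef2d points of W330R lie below those of WT at all 4 stages, and 5 Mef2c points lie at 0.

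Mef2d, the member with the clearest genotype difference, was lower in both mutants than in WT. In undifferentiated cells its level was 100.6 and 93.7 CPM in the 2 WT libraries and 90.4 and 83.5 in the W330R libraries. On day 2 it was 93.9 and 113 CPM in WT, 76.6 and 74.4 in W330R, and 71.8 and 92.0 in W330R-R181E. On day 4 the values were 84.1 and 105 CPM in WT, 74.1 and 82.4 in W330R, and 73.9 and 81.3 in W330R-R181E. On day 6 they were 85.2 and 92.6 CPM in WT, 78.0 and 76.8 in W330R, and 72.6 and 68.9 in W330R-R181E. Both W330R libraries were below both WT libraries at 4 of 4 stages, an arrangement found for 3.44% of the 14520 genes tested. Both double mutant libraries were below both WT libraries on 3 of 3 days, as for 3.26% of genes. The double mutant and W330R overlapped on days 2 and 4 and were separate on day 6.

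Averaged over the 4 stages, Mef2d in W330R was 0.828 of its WT level, a log2 fold change of -0.27 with a standard error (SE) of 0.0698 and an adjusted p of 0.0131 in edgeR's quasi-likelihood test over all genes. W330R was lower in 8 of 8 pairs of libraries of the same stage and number, which follows from the separation at all 4 stages. Counts of such pairs are given here and below as a description, because the numbers were not taken as a pairing. Mef2d was the only one of the 3 tested members called, beside 22.9% of all genes called in this comparison and 11.8% called lower. The 1 call among 3 members cannot be told from that background. Averaged over days 2 to 6, the double mutant was at 0.803 of WT (log2 fold change -0.32, SE 0.0807, adjusted p = 0.0269 in edgeR) and lower in 6 of 6 pairs, in a comparison that called 9.57% of genes and 5.12% lower. This second call was lost in a fit of only the compared conditions, where the log2 fold change was -0.31 and the adjusted p 0.157. It was also lost on leaving out any of 6 of the 12 libraries, with log2 fold changes from -0.37 to -0.25 over the libraries left out. The 2 comparisons share the WT libraries of days 2 to 6 and are not independent. The first was lost when each pair of undifferentiated libraries was summed to 1 sample (log2 fold change -0.26, adjusted p = 0.0688), an alternative chosen after seeing how close those pairs were.

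The difference of Mef2d between the double mutant and W330R was -0.0072 on the log2 scale, with a 95% interval from -0.18 to 0.17 (adjusted p = 0.98), in a comparison that called 17.2% of genes. Differences within this interval are compatible with these counts, and larger ones could also have gone uncalled. Stage by stage, the log2 fold change of Mef2d between W330R and WT was -0.16 before induction, then -0.45 (day 2), -0.27 (day 4) and -0.20 (day 6). The shares of all genes called at these stages were 1.75%, 3.06%, 6.14% and 7.54%, and between the double mutant and W330R they were 2.67%, 1.91% and 1.5% on days 2, 4 and 6, where no member was called. None of the 4 differences of Mef2d passed adjustment in edgeR, with an adjusted p of 0.0963 on day 2, the lowest; DESeq2 gave -0.47 and an adjusted p of 0.0341 there. The change of Mef2d from day 2 to day 6 was -0.22 in WT, 0.036 in W330R and -0.21 in W330R-R181E, and none of these was called, beside 26.6%, 25% and 23.2% of all genes. The difference of that change between W330R and WT was 0.25 with a 95% interval of -0.17 to 0.68, in a comparison that called 0.0895% of genes, and that between the double mutant and WT was 0.0065, where 0.0413% were called. In order of the condition means, the 4 WT conditions held the 4 highest places of 11, from 103 ± 13.4 CPM (SD, n = 2) on day 2 to 88.9 ± 5.23 on day 6, and the lowest place was that of the double mutant on day 6 with 70.8 ± 2.67. Only 2 of the 10 neighbouring conditions in that order had libraries that did not overlap: W330R on day 6 above W330R on day 2, and that condition above the double mutant on day 6.

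The summed level of the 10 adipocyte markers moved with the genotypes as well. In undifferentiated cells it was 51.6 to 59.7 CPM, and on days 2 to 6 it was 2877 to 9241 CPM in WT, 1451 to 2528 in W330R and 1705 to 4349 in W330R-R181E. Of these markers 9 passed the filter and Lep was at or under 3 counts everywhere. In bulk RNA, fewer adipocytes and less RNA per adipocyte cannot be told apart, and the part of the adipocyte content in the level of Mef2d was not tested. The summed level of 8 mesenchymal markers lay between 2355 and 33875 CPM, that of 5 smooth muscle markers between 9.89 and 1241 CPM, that of 4 endothelial markers between 1.13 and 24.1 CPM, and that of 4 leukocyte markers between 2.93 and 16.5 CPM. Dnmt3a itself was counted at 346 and 344 CPM in undifferentiated WT and at 326 and 316 CPM in undifferentiated W330R. On days 2 to 6 it was 105 to 322 CPM in WT, 87.4 to 142 in W330R and 68.5 to 148 in W330R-R181E. The part of this difference in the other levels was not tested. The counts do not separate the cells' own gene from an introduced copy.

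Mef2a, the member with the highest level, was not called between any genotypes or stages. In undifferentiated cells its level was 106 and 105 CPM in the WT libraries and 117 and 110.2 in W330R. On day 2 it was 123 and 118 CPM in WT, 103 and 141 in W330R, and 90.2 and 105 in W330R-R181E. On day 4 it was 127 and 139 CPM in WT, 114 and 123 in W330R, and 94.7 and 108 in W330R-R181E. On day 6 it was 84.4 and 112 CPM in WT, 81.5 and 113 in W330R, and 71.4 and 110.2 in W330R-R181E, so that replicate 1 was the lower library in all 3 genotypes. The double mutant lay below both WT libraries on days 2 and 4 and overlapped with WT on day 6.

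Averaged over the 4 stages, the log2 fold change of Mef2a between W330R and WT was -0.016, with a 95% interval from -0.24 to 0.21 (adjusted p = 0.961 in edgeR). Over days 2 to 6 the double mutant was at 0.830 of WT, with a log2 fold change of -0.27, a 95% interval from -0.53 to -0.0055 and an adjusted p of 0.175. It was at 0.863 of W330R, with a log2 fold change of -0.21, a 95% interval from -0.48 to 0.050 and an adjusted p of 0.268. The double mutant was lower in 6 of 6 pairs in both comparisons, and neither difference was called in edgeR; without replicate 2 of W330R-R181E on day 6, the first had an adjusted p of 0.0499 and a log2 fold change of -0.38. Over time Mef2a went from day 2 to day 6 by -0.30 in WT, -0.33 in W330R and -0.11 in W330R-R181E on the log2 scale, none of them called. The condition means ran from 133 ± 8.82 CPM (SD, n = 2) in WT on day 4 to 90.8 ± 27.4 in the double mutant on day 6, and only 1 of 10 neighbours in that order was separate, undifferentiated W330R above undifferentiated WT.

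Mef2c, which serves muscle, heart, bone and neural crest derivatives, was low and uneven. In undifferentiated cells it had 47 and 132 counts in the WT libraries (4.14 and 5.88 CPM) and 42 and 17 in W330R (3.43 and 1.97 CPM). On day 2 it had 17 and 0 counts in WT, 11 and 42 in W330R, and 50 and 26 in W330R-R181E, which is at most 4.10 CPM. On day 4 it had 0 and 15 counts in WT, 35 and 102 in W330R (2.23 and 3.78 CPM), and 0 and 24 in W330R-R181E. On day 6 it had 26 and 0 counts in WT, 60 and 0 in W330R, and 123 and 38 in W330R-R181E (2.86 and 4.11 CPM). In W330R on day 6 the library with 60 counts had 1.17 CPM, and the 0 of the other allows at most 0.123 CPM. Libraries of 1 condition thus differed by more than these limits. The double mutant was above the WT library of the same day and number in 5 of 6 pairs, with both at 0 in the other, and W330R was above WT in 3 of 8 pairs and below it in 4.

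No difference of Mef2c was called by edgeR or DESeq2 in any of the 17 comparisons. The log2 fold change was 0.65 with a 95% interval from -1.15 to 2.45 for W330R against WT over the 4 stages (adjusted p = 0.632 in edgeR). For the double mutant against WT over days 2 to 6 it was 1.58 with an interval from -0.59 to 3.76 (adjusted p = 0.334), and against W330R it was 0.42 with an interval from -1.58 to 2.42 (adjusted p = 0.824). From undifferentiated cells to day 2 it was -3.07 in WT, with an interval from -6.84 to 0.70, and -1.29 in W330R, beside 50.9% and 48.2% of genes called. Changes of several fold in either direction lie within these intervals. By mean level WT undifferentiated cells came first with 5.01 ± 1.23 CPM (SD, n = 2), and this was the only condition whose libraries were both above those of the next in order.

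**Figure D2:**
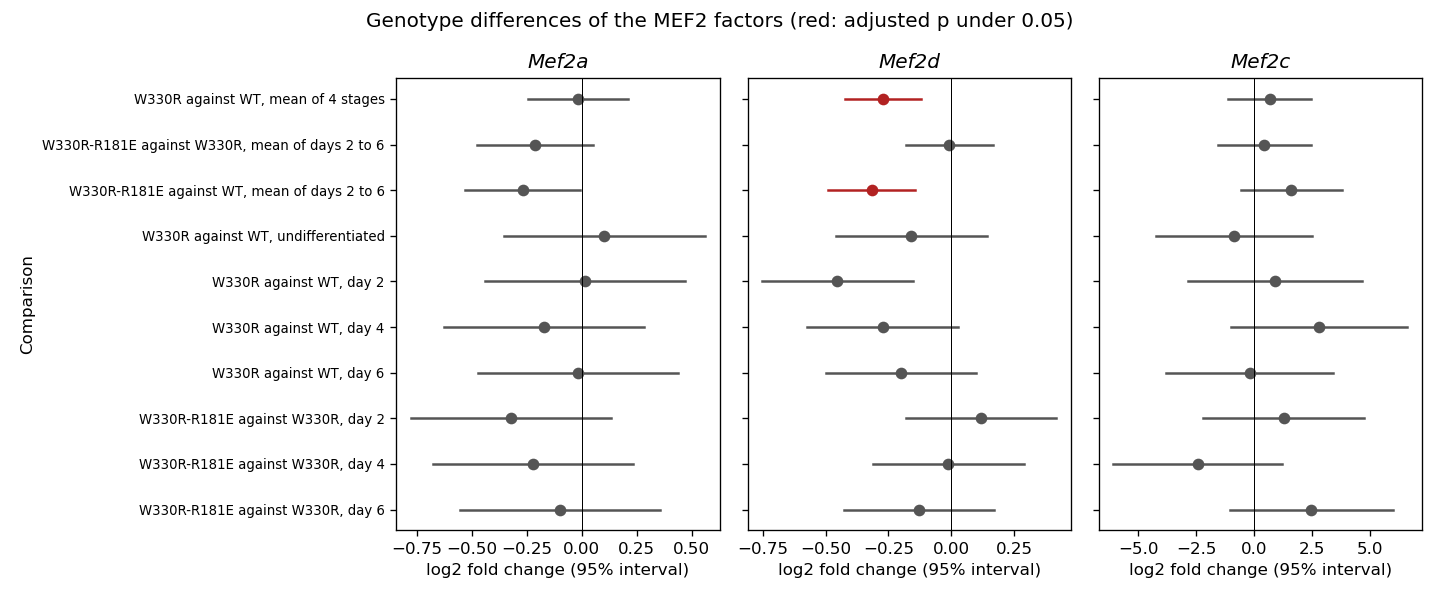
Log2 fold changes (points) and 95% intervals (lines) of Mef2a, Mef2d and Mef2c in 10 genotype comparisons, with a scale of its own for each gene on the horizontal axes; red marks an adjusted p under 0.05 in edgeR. Mef2d is red in the averaged comparisons of W330R and of W330R-R181E with WT, and the Mef2c intervals span several log2 units.

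Across the 22 libraries, log2 CPM of Mef2a and Mef2d had a Pearson correlation of 0.379, Mef2a and Mef2c of -0.175, and Mef2c and Mef2d of -0.167. The genes whose level was most like Mef2d, among the 11153 others compared at a mean log2 CPM of at least 1, were Gab2 (r = 0.902), Map3k3 (0.869) and Smap1 (0.855). Most like Mef2a were Cers6 (0.852), Map3k8 (0.778) and Stk17b (0.734), and most like Mef2c, among 11154, were Haus1 (0.690), Lsm5 (0.674) and Rgs10 (0.657). These are descriptions over libraries that share genotypes, stages and depth, and in the sparse counts of Mef2c a correlation carries little.

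The factors that act upstream of the myogenic bHLH genes were in part present. Of 9 listed genes, Pax7, Eya2 and Meox2 were at or under 3 counts in every library, and 4 could be tested (Pax3, Six2, Six4 and Eya4). In W330R against WT over the 4 stages, 2 of these 4 were higher and 0 lower, beside 11.2% of all genes called higher. The median log2 fold change of the 4 was 0.26, and that of all genes 0.011. Eya4, a transcriptional cofactor, had 87.7 to 204 CPM in W330R and 34.2 to 202 in WT (log2 fold change 0.63, higher in 7 of 8 pairs). Six2, a homeodomain factor, was higher by 0.44 on average. Both W330R libraries of Six2 were above both WT libraries at 2 of 4 stages and below them at 1. Leaving out a single library ended the call of Six2 for 12 of 16 libraries and that of Eya4 for 5 of 16, and both were lost with the undifferentiated pairs summed.

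Comparing the double mutant with W330R, Eya4 alone of this group was called, with a log2 fold change of -0.68, with 34.4 to 105 CPM against 87.7 to 139 and the double mutant lower in 6 of 6 pairs. It was 1 of 4 called lower, beside 9.36% of all genes. This call was lost without the undifferentiated libraries and without any of 8 of the 12 libraries compared. Between the double mutant and WT the median log2 fold change of the 4 was 0.094, with an adjusted p of 0.274 in edgeR for Pax3, the lowest of them. Pax3, a paired-box factor of muscle progenitors and neural crest, was counted at 7.40 to 10.6 CPM in the 4 undifferentiated libraries and at 0.198 to 0.567 CPM in the 18 libraries of days 2 to 6. Its log2 fold change from undifferentiated cells to day 2 was -4.93 in WT and -5.11 in W330R, beside 24.4% and 23% of genes called lower. The undifferentiated columns follow another naming pattern than the day columns and their pairs are much closer to each other, so that this step cannot be told apart from how the libraries were run.

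The E protein partners and most listed inhibitors of the myogenic bHLH factors were counted. The factors themselves had at most 1 count in any library. All 3 E proteins were well counted. Tcf3, which encodes the E12 and E47 proteins, was higher in W330R than in WT by 0.41 on the log2 scale, at 137 to 240.4 against 102 to 182 CPM and in 6 of 8 pairs; both W330R libraries were below WT in undifferentiated cells and above it on the 3 later days. This call was lost with the undifferentiated pairs summed and without replicate 2 of WT on day 2 or 4. Tcf4 and Tcf12 were not called. Of 16 inhibitors 15 were tested, and Msc, the gene of the MyoD repressor musculin, was at or under 3 counts in every library. In W330R against WT, 2 of 15 rose and 2 fell, beside 11.2% and 11.8% of all genes. Snai1, an E-box repressor, rose by 0.66 (46.2 to 182 against 45.7 to 116 CPM, 7 of 8 pairs). Twist2, which binds E proteins in place of MyoD, was higher by 0.35 on average (6 of 8 pairs). Both W330R libraries of Twist2 were above both WT libraries at 3 of 4 stages and below them at 1. The Notch effectors Hey1 and Hes1 had log2 fold changes of -0.71 and -0.36. For Hes1, both W330R libraries were below both WT libraries at 2 of 4 stages and above them at 1. The median log2 fold change of the 15 was -0.072. Of these calls Snai1 was kept in every alternative and without any 1 library, and Twist2 was lost with the undifferentiated pairs summed and without replicate 2 of undifferentiated WT. Those of Hes1 and Hey1 were lost without the undifferentiated libraries, with those pairs summed, and each without any of 14 of the 16 libraries. Among the 16, both genes were highest in undifferentiated WT, and Hey1 was also lost with no filter.

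In the double mutant against W330R, 3 of the 15 inhibitors were lower and 0 higher, beside 9.36% of all genes called lower. Twist1 had 17.98 to 31.3 CPM in the double mutant and 27.2 to 39.7 in W330R (log2 fold change -0.53). Twist2 had 18.7 to 35.3 against 28.5 to 52.3 CPM (-0.55), and Mdfic, a relative of the MyoD family inhibitor, had 22.6 to 25.6 against 29.0 to 39.99 CPM (-0.54). Both double mutant libraries of each of these genes were below both W330R libraries on 3 of 3 days, as for 8.35% of all genes, and the 3 calls held in every alternative and without any 1 library. Against WT the double mutant differed in 1 of the 15, Id4, which was higher by 0.85, beside 4.46% of all genes called higher. The call was lost with no filter, in a fit of only the conditions compared and without any of 9 of the 12 libraries.

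Genes that hold MEF2 proteins in check or work with them changed in both directions. Of the 17 listed, which include Mef2b, 15 were tested, and Vgll2 had 0 counts in every library. Mef2b, the remaining family member, had at most 5.02 CPM, was at or under 3 counts in 5 libraries and overlaps Borcs8 in the annotation. In W330R against WT, 5 of 15 rose and 1 fell, beside 11.2% and 11.8% of all genes. Hdac7, a class IIa deacetylase that represses MEF2, rose by 0.60, with 49.5 to 122 CPM in W330R and 25.6 to 111 in WT. Both of its W330R libraries were below WT in undifferentiated cells and above WT on days 2, 4 and 6, where the log2 fold changes of 0.93, 0.88 and 0.69 were each called (adjusted p = 0.0224, 0.0206 and 0.0435 in edgeR). Hdac4, of the same class, had the opposite sign, with a log2 fold change of -0.48 and W330R lower in 8 of 8 pairs. It stood at 68.3 and 65.3 CPM in undifferentiated WT and at 35.2 and 38.8 in undifferentiated W330R. Hdac5 rose by 0.36 and Mapk7, which encodes the kinase ERK5 that phosphorylates MEF2 proteins, by 0.30. The calcineurin inhibitor Cabin1 rose by 0.28 and the calcium-dependent kinase gene Camk2g by 0.23. For Mapk7, both W330R libraries were above both WT libraries at 3 of 4 stages and below them at 1. The averaged calls of Hdac7, Hdac4 and Camk2g held in every alternative and without any 1 library. Those of Hdac5, Mapk7 and Cabin1 were lost with the undifferentiated pairs summed and without any of 9, 11 and 3 of the 16. That of Hdac5 was also lost without the undifferentiated libraries, and that of Mapk7 with no filter. The single-stage calls of Hdac7 on days 2, 4 and 6 were lost in a fit of only the conditions compared and without the undifferentiated libraries. Each of them held in only 1 of the 4 fits with a library left out.

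Against W330R the double mutant had less Hdac7, at 31.3 to 75.8 against 49.5 to 122 CPM over days 2 to 6 (log2 fold change -0.72, 6 of 6 pairs). With Mapk7 (-0.33), Camk2g (-0.29) and Map2k5 (-0.24) it made 4 of 15 called lower, beside 9.36% of all genes, and 0 were called higher. The calls of Hdac7 and Camk2g held in every alternative and without any 1 library. Those of Mapk7 and Map2k5 were each lost without any of 10 of the 12. Both were also lost with RLE scaling, with no filter, in a fit of only the conditions compared and without the undifferentiated libraries. In the double mutant against WT, Cabin1 was higher in 6 of 6 pairs, and Hdac4 and the coactivator Ep300 were lower in 6 of 6 pairs, beside 4.46% and 5.12% of genes. These 3 calls of 15 were all lost in a fit of only the conditions compared. Those of Hdac4 and Ep300 were also lost without the undifferentiated libraries, and that of Hdac4 with no filter.

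**Figure D3:**
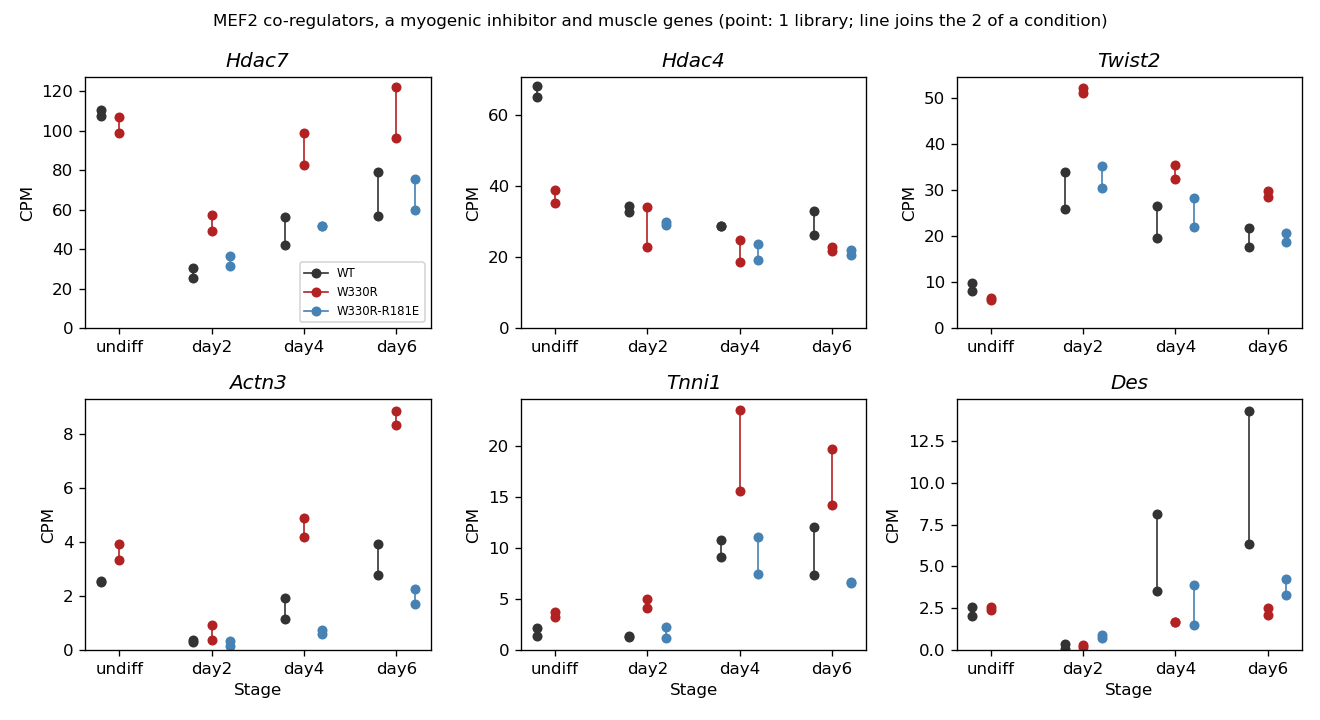
CPM (vertical axes, each from 0) of the MEF2 co-regulators Hdac7 and Hdac4, the inhibitor Twist2 and the muscle genes Actn3, Tnni1 and Des by stage, with 1 point per library, a line joining the 2 libraries of a condition, and genotypes in black (WT), red (W330R) and blue (W330R-R181E). Hdac7, Actn3 and Tnni1 have both W330R libraries above those of the other genotypes on days 4 and 6.

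Genes known as MEF2 targets in several tissues moved in both directions. Of 10 listed, 7 were tested and Xirp1 was at or under 3 counts everywhere. In W330R against WT, 1 of 7 was higher and 1 lower, beside 11.2% and 11.8% of all genes. Ppargc1a, the coactivator of mitochondrial genes, had 1.44 to 11.6 CPM in W330R and 2.82 to 11.7 in WT (log2 fold change -0.90, lower in 7 of 8 pairs). Klf4 had a log2 fold change of 0.54, with 247 and 247 CPM in undifferentiated W330R below 400.0 and 401 in WT and both W330R libraries above both WT libraries on days 4 and 6. In the double mutant against W330R, Ppargc1a (1.11) and the insulin-responsive glucose transporter Slc2a4 (0.90) were higher in 6 of 6 pairs, and Klf4 (-0.64) was lower, beside 7.87% and 9.36% of all genes. The call of Klf4 in W330R against WT was lost with the undifferentiated pairs summed and without any of 6 of the 16 libraries, that in the double mutant against W330R without the undifferentiated libraries and without any of 6 of the 12, and that of Ppargc1a in W330R against WT with the undifferentiated pairs summed. Slc2a4, which is also an adipocyte gene, had 4.23 to 52.6 CPM in WT on days 2 to 6, 1.33 to 9.28 in W330R and 2.18 to 17.6 in the double mutant, and the log2 fold change of the double mutant against WT was -1.30, the 1 call of 7 there, beside 5.12% of all genes called lower. The double mutant's calls of Ppargc1a and Slc2a4 against W330R, and of Slc2a4 against WT, held in every alternative and without any 1 library. Between W330R and WT, Slc2a4 was not called over the 4 stages (log2 fold change -1.14, adjusted p = 0.142 in edgeR). By day, Slc2a4 was called lower on days 2, 4 and 6, Ppargc1a lower on day 2 and Klf4 higher on day 4. The shares of all genes called on these days were 3.06%, 6.14% and 7.54%. The day 6 call held in every alternative and without any 1 library. The other single-stage calls were lost in a fit of only the conditions compared. From day 2 to day 6, 3 of the 7 rose in WT, 4 in W330R and 5 in W330R-R181E, and none fell. The matching shares of all genes called higher were 14.8%, 13.6% and 12.9%. All 5 calls in W330R-R181E were lost in a fit of only the conditions compared, as were that of Klf4 in WT and that of Ppargc1a in W330R. In W330R-R181E those of Ppargc1a and Nr4a1 were also lost without the undifferentiated libraries. That of Ppargc1a held in 0 of 4 fits with a library left out.

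The skeletal muscle genes downstream of these factors were mostly silent or low. Of 52 listed genes of the contractile apparatus, fusion, the synapse, calcium handling and metabolism, 3 had 0 counts in every library (Ckm, Cav3 and Myot), 12, these included, were at or under 3 counts in every library, and 26 could be tested. Mymk and Mymx, the fusion proteins, stand in the table under the older symbols Tmem8c and Gm7325 and had at most 4 and 6 counts. The summed level of 10 defining skeletal muscle markers was 0.144 to 1.67 CPM in WT, 0.254 to 0.925 in W330R and 0.246 to 1.21 in W330R-R181E. Of these markers Acta1, skeletal actin, was the only one tested, with at most 1.58 CPM.

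**Figure D4:**
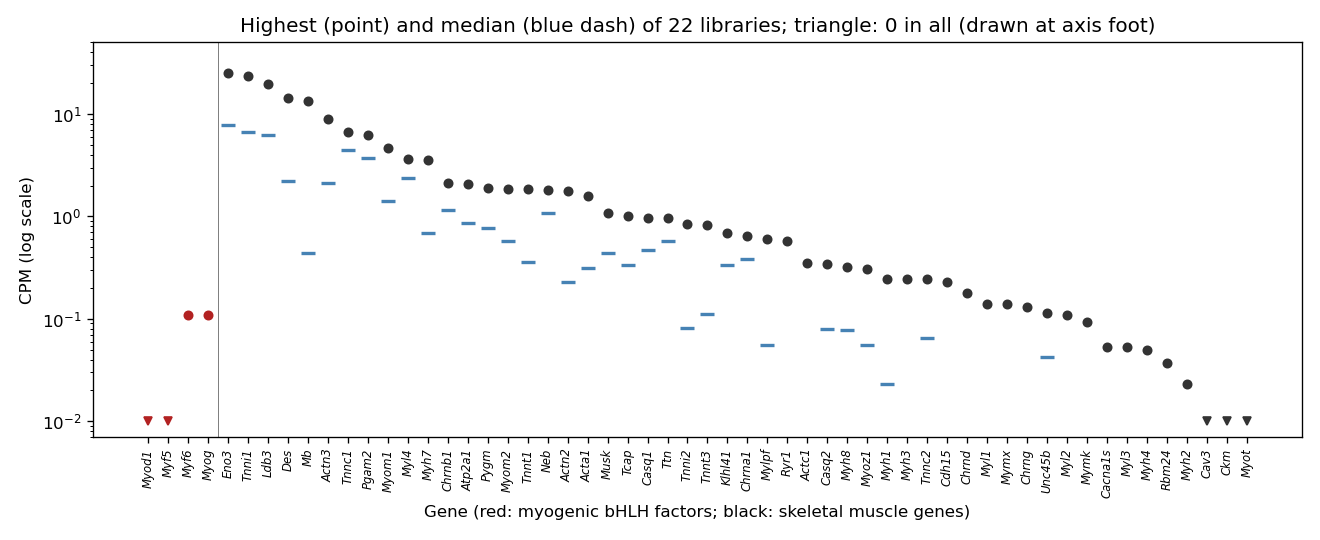
Highest CPM in any of the 22 libraries (points, log scale) and median CPM (blue dashes, drawn where above 0) of the 4 myogenic bHLH factors (red) and 52 skeletal muscle genes (black), with genes at 0 in all libraries as triangles at the foot of the axis. Eno3, Tnni1, Ldb3, Des and Mb are the genes that passed 10 CPM in some library.

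A few of the tested muscle genes were called between the genotypes. In W330R against WT, 2 of 26 were higher and 1 lower, beside 11.2% and 11.8% of all genes. These counts did not exceed the shares of all genes, so that they do not set the muscle genes apart. The median log2 fold change of the 26 was -0.0068. Tnni1, slow skeletal troponin I, had 1.41 and 2.14 CPM in undifferentiated WT and 3.27 and 3.70 in W330R. On day 4 it had 10.8 and 9.09 CPM in WT, 15.6 and 23.5 in W330R, and 7.47 and 11.1 in the double mutant. Over the 4 stages its log2 fold change between W330R and WT was 1.12, with both W330R libraries above both WT libraries at 4 of 4 stages, as for 3.87% of all genes. Actn3, the alpha-actinin of fast fibres, had 2.78 and 3.94 CPM in WT on day 6, 8.34 and 8.87 in W330R, and 1.70 and 2.27 in the double mutant. Its log2 fold change was 1.10 between W330R and WT and -2.13 between the double mutant and W330R, where Tnni1 had -1.30. Against W330R, the double mutant had the lower value of both genes in 6 of 6 pairs, and their calls in the averaged comparisons held in every alternative and without any 1 library.

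Desmin (Des), an intermediate filament of all muscle types, went the other way. On day 6 it had 6.35 and 14.3 CPM in WT, 2.53 and 2.09 in W330R, and 3.28 and 4.22 in the double mutant. Over the 4 stages W330R was lower than WT by a log2 fold change of -0.93, and over days 2 to 6 the double mutant was higher than W330R by 1.03. In that comparison Eno3, muscle enolase, was lower by a log2 fold change of -0.54. This made 1 of 26 higher and 3 lower, beside 7.87% and 9.36% of all genes. These counts cannot be told from that background. The calls of Des were lost without any of 12 of the 16 libraries and of 11 of the 12, and that of Eno3 without any of 11 of the 12. The first call of Des was also lost with the undifferentiated pairs summed, and the second without the undifferentiated libraries. That of Eno3 was also lost with no filter, in a fit of only the conditions compared and without the undifferentiated libraries. Between the double mutant and WT, 0 of 26 were called in edgeR, where 3 were higher and 1 lower at an unadjusted p under 0.05, and DESeq2 called 1 higher. From day 2 to day 6, 7 of 26 rose and 0 fell in each of the 3 genotypes, beside 14.8%, 13.6% and 12.9% of all genes called higher, and Actn3, Tnnt1, Tnni1, Des and Ldb3 were among the 7 in all 3. The log2 fold changes of Actn3 were 3.32 in WT, 3.70 in W330R and 3.09 in W330R-R181E, and the difference of this change from WT was called for 0 of the 26 in either mutant by edgeR or DESeq2, with 3 lower in W330R and 2 lower in the double mutant at an unadjusted p under 0.05. Of the calls from day 2 to day 6, all 7 in W330R-R181E were lost in a fit of only the conditions compared. So were those of Acta1, Mb and Tnnt1 in WT. The call of Myh7 was lost in both mutants without the undifferentiated libraries. The 5 smooth muscle markers and the adipocyte markers ranged as given above while these genes moved, and their part in the muscle gene levels was not tested. Throughout these changes Myod1, Myf5, Myf6 and Myog stayed at or under 1 count in every library.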

How the data were processed

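Total RNA of C3H 10T1/2 cells was sequenced by the submitters after TriZol extraction and NEBNext Ultra II library preparation. The authors deposited 1 table of whole-number counts per gene symbol and library, without normalization. The submitters' processing notes name kallisto, DESeq2 1.40 and GRCm39 without a role; the annotation and the use of strand are not given in the sources used here. Library totals ran from 8859501 to 47453908, with a median of 19355792.

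The filter filterByExpr (count of at least 10, total of at least 15) left 14520 genes for the tests, which used edgeR 4.0.16 under R 4.3.3. Library sizes were scaled by TMM, and 1 quasi-likelihood model with a mean per condition was fitted to all 22 libraries. The 17 contrasts were adjusted by Benjamini-Hochberg over all genes tested, with calls at an adjusted p under 0.05. The SE is the log2 fold change divided by the square root of the F statistic, and intervals are at 95%. CPM and the limit of 3 counts that a count of 0 allows were both scaled by library totals times TMM factors. Alternatives were DESeq2 1.42.0, RLE scaling, a fit of just the conditions compared, no filter, the replicate number as a block, and each library left out; the summing of undifferentiated pairs and the fit without them were chosen after seeing the data.

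The members and gene lists were chosen with earlier results of these data known. The rule for named genes took the 7 members, the 3 genes most correlated with each tested member, and up to 4 called genes by size per list and averaged contrast; Twist1, Six2, Hdac5, Mapk7, Map2k5, Camk2g and other called genes beyond it, and the day-wise values, were named after their values were seen. Mymk and Mymx were matched through RefSeq synonyms. Transcript lengths and overlaps come from GENCODE M21 and promoters from RefSeq (GRCm38.p6); no other coordinates were used because the builds differ. Overlaps were looked up for the members and Mef2b alone. A few listed genes are not reported here, and the counts for the upstream factors leave them out.

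The 2 undifferentiated pairs were closer than all day pairs (biological coefficient of variation 0.0451 and 0.0484, against 0.165 to 0.368). They still differed beyond sampling noise, with 15.5% and 13.5% of genes at p under 0.05 in a chi-square test. Technical pairs can differ in this way too, so that the test cannot show whether these are separate replicates. They were kept as 2 replicates, and the results with each pair summed are given as an alternative. On simulated counts for 14133 genes in the comparison of W330R with WT over the 4 stages, 74.2% of genes changed by 1 log2 unit and 95.0% of those changed by 2 were recovered, with 8.24% of calls false. In the comparison of the undifferentiated libraries alone these shares were 38.1% and 66%, with 5.5% of calls false. The simulation drew independent libraries and gave each gene the same spread in all conditions, unlike the pairs above. The shares therefore describe the simulated counts and need not hold for these libraries.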

Additional observations from a re-analysis of the deposited data

How the results depend on the processing

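The lower level of Mef2d in W330R kept its direction in every alternative and its call in all except the summed undifferentiated pairs (-0.26, adjusted p = 0.0688), and on leaving out any of 16 libraries it stayed between -0.30 and -0.23 with its call. The lower level of Mef2d in the double mutant than in WT lost its call with no filter on low counts (-0.30, adjusted p = 0.0693), in a fit of only the conditions compared (-0.31, adjusted p = 0.157), without the undifferentiated libraries (-0.32, adjusted p = 0.0556) and without replicate 2 of WT or replicate 1 of the double mutant on day 2, 4 or 6 (-0.37 to -0.25 over all libraries left out). The causes were not tested. Values near 0 changed sign: Mef2d in the double mutant against W330R was 0.0036 with DESeq2, 0.0025 with RLE scaling and 0.0017 without the undifferentiated libraries over days 2 to 6, and 0.015 on day 4 with no filter. The counts limit what can be said of Myod1, Myf5, Myf6 and Myog, at or under 3 counts in every library, and of Mef2c, at 0 in 5 libraries.

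The labels do not say that a replicate number marks a shared batch, and the numbers were not taken as a pairing because the correlation of same-numbered deviations did not pass 0.1 in every pair of conditions. It ranged from -0.095 to 0.70 over 55 pairs. Of the 36 pairs among days 2 to 6, 28 passed 0.1 and 34 were above 0 (median 0.24), a hint from the data that day libraries of the same number vary together, whereas pairs of an undifferentiated with a day condition averaged -0.0090. With the replicate number as a block Mef2a in W330R against WT on day 2 was -0.0016, and the genes called were 2338 for W330R-R181E against WT (mean of days 2 to 6), 392 for W330R against WT (undifferentiated), 909 for W330R against WT (day 2), 1848 for W330R against WT (day 4), 1757 for W330R against WT (day 6), 749 for W330R-R181E against W330R (day 2), 542 for W330R-R181E against W330R (day 4), 498 for W330R-R181E against W330R (day 6), 24 for difference of day 6 against day 2 (W330R minus WT) and 12 for difference of day 6 against day 2 (W330R-R181E minus WT). No call on Mef2a, Mef2c or Mef2d changed under the replicate block.

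The number of genes called over the whole table was 3329 for W330R against WT (mean of 4 stages), 2501 for W330R-R181E against W330R (mean of days 2 to 6), 1390 for W330R-R181E against WT (mean of days 2 to 6), 254 for W330R against WT (undifferentiated), 445 for W330R against WT (day 2), 891 for W330R against WT (day 4), 1095 for W330R against WT (day 6), 387 for W330R-R181E against W330R (day 2), 278 for W330R-R181E against W330R (day 4), 218 for W330R-R181E against W330R (day 6), 3862 for day 6 against day 2 (WT), 3623 for day 6 against day 2 (W330R), 3369 for day 6 against day 2 (W330R-R181E), 13 for difference of day 6 against day 2 (W330R minus WT) and 6 for difference of day 6 against day 2 (W330R-R181E minus WT). It moved by over 1.5 times as follows. With DESeq2 it was 2272 for W330R-R181E against WT (mean of days 2 to 6), 528 for W330R against WT (undifferentiated), 1081 for W330R against WT (day 2), 1700 for W330R against WT (day 4), 1754 for W330R against WT (day 6), 902 for W330R-R181E against W330R (day 2), 690 for W330R-R181E against W330R (day 4), 674 for W330R-R181E against W330R (day 6), 129 for difference of day 6 against day 2 (W330R minus WT) and 70 for difference of day 6 against day 2 (W330R-R181E minus WT). In a fit of only the conditions compared it was 163 for W330R-R181E against WT (mean of days 2 to 6), 4194 for W330R against WT (undifferentiated), 0 for W330R against WT (day 2), 0 for W330R against WT (day 4), 57 for W330R against WT (day 6), 0 for W330R-R181E against W330R (day 2), 0 for W330R-R181E against W330R (day 4), 0 for W330R-R181E against W330R (day 6), 1030 for day 6 against day 2 (WT), 80 for day 6 against day 2 (W330R-R181E), 0 for difference of day 6 against day 2 (W330R minus WT) and 0 for difference of day 6 against day 2 (W330R-R181E minus WT). Without the undifferentiated libraries it was 699 for W330R-R181E against WT (mean of days 2 to 6), 150 for W330R against WT (day 2), 295 for W330R against WT (day 4), 643 for W330R against WT (day 6), 179 for W330R-R181E against W330R (day 2), 68 for W330R-R181E against W330R (day 4), 40 for W330R-R181E against W330R (day 6), 5 for difference of day 6 against day 2 (W330R minus WT) and 0 for difference of day 6 against day 2 (W330R-R181E minus WT). With the undifferentiated pairs summed it was 1720 for W330R against WT (mean of 4 stages) and 8 for W330R against WT (undifferentiated). With no filter on low counts it was 33 for difference of day 6 against day 2 (W330R minus WT). With RLE scaling it was 0 for difference of day 6 against day 2 (W330R-R181E minus WT). The causes of these shifts were not tested.

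Leaving out each library in turn, the number of genes called ranged from 1315 to 3806 for day 6 against day 2 (W330R-R181E), 1624 to 2604 for day 6 against day 2 (W330R), 2101 to 3374 for day 6 against day 2 (WT), 0 to 35 for difference of day 6 against day 2 (W330R minus WT), 0 to 15 for difference of day 6 against day 2 (W330R-R181E minus WT), 34 to 360 for W330R against WT (day 2), 40 to 971 for W330R against WT (day 4), 131 to 1437 for W330R against WT (day 6), 48 to 58 for W330R against WT (undifferentiated), 132 to 464 for W330R-R181E against W330R (day 2), 2 to 125 for W330R-R181E against W330R (day 4), 19 to 77 for W330R-R181E against W330R (day 6), 1585 to 2432 for W330R-R181E against W330R (mean of days 2 to 6) and 483 to 2089 for W330R-R181E against WT (mean of days 2 to 6). A fit without a library leaves its condition with 1, assumed to vary like the others. Some libraries left out turned the sign of log2 fold changes of Mef2a that were not called, which ranged from -0.14 to 0.32 for day 2 against undifferentiated (W330R), -0.45 to 0.18 for day 6 against day 2 (W330R-R181E), -0.26 to 0.22 for difference of day 6 against day 2 (W330R minus WT), -0.16 to 0.47 for difference of day 6 against day 2 (W330R-R181E minus WT), -0.23 to 0.23 for W330R against WT (day 2), -0.24 to 0.23 for W330R against WT (day 6), -0.079 to 0.049 for W330R against WT (mean of 4 stages) and -0.44 to 0.18 for W330R-R181E against W330R (day 6). Some libraries left out turned the sign of log2 fold changes of Mef2c that were not called, which ranged from -0.24 to 1.41 for day 6 against day 2 (W330R-R181E), -7.38 to 0.10 for day 6 against day 2 (W330R), -6.61 to 6.91 for day 6 against day 2 (WT), -7.72 to 5.80 for difference of day 6 against day 2 (W330R minus WT), -6.53 to 6.99 for difference of day 6 against day 2 (W330R-R181E minus WT), -0.20 to 7.52 for W330R against WT (day 2), -6.77 to 6.69 for W330R against WT (day 6), -0.99 to 2.38 for W330R against WT (mean of 4 stages), -1.75 to 2.61 for W330R-R181E against W330R (mean of days 2 to 6) and -0.57 to 3.88 for W330R-R181E against WT (mean of days 2 to 6). Some libraries left out turned the sign of log2 fold changes of Mef2d that were not called, which ranged from -0.064 to 0.22 for day 2 against undifferentiated (WT), -0.16 to 0.20 for difference of day 6 against day 2 (W330R-R181E minus WT), -0.073 to 0.29 for W330R-R181E against W330R (day 2), -0.10 to 0.052 for W330R-R181E against W330R (day 4) and -0.057 to 0.049 for W330R-R181E against W330R (mean of days 2 to 6). In Mef2c such fits leave a condition at 0, so that the extreme values depend on the prior count.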
